A study of Mus musculus with 6 samples.

Results

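The genes described here are 10 signals of the chemokine system and its neighbour, the CSF1 axis: the CC chemokines Ccl2, Ccl7 and Ccl5, the CXC chemokines Cxcl1, Cxcl2, Cxcl5, Cxcl10 and Cxcl12, the chemokine receptor Cxcr4, and Csf1, a cytokine that is not itself a chemokine. They were taken by exact gene symbol, which matched 10 of the 43283 gene identifiers in the deposited table. The values are TPM, the share of a gene's transcripts in its library after correction for length, in cultured mouse muscle stem cells given prostaglandin E2 (PGE2) or DMSO for 24 h, with 3 libraries per group. Both groups came from hindlimb muscle of female C57BL/6 mice aged 8 to 12 weeks, sorted for α7-integrin and CD34 and against CD45, Sca1, CD31 and CD11b. Both were kept in medium with 20% serum, and the PGE2 group differed in PGE2 in place of DMSO. The PGE2 dose is not given in the sources used here. RNA came from 5000 to 10000 cells, and the cDNA was amplified before sequencing. The libraries are called biological replicates, without a statement on separate animals or cultures, so the p-values reflect how far these libraries scatter, in part perhaps for technical reasons.

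Chemokines are small secreted proteins that steer cell migration through G protein-coupled receptors, and are classed by the spacing of their first cysteines as CC, CXC, CX3C or C. In injured muscle, CCL2 and CCL7 recruit monocytes through the receptor CCR2, and CXCL1, CXCL2 and CXCL5 recruit neutrophils through CXCR2. CXCL12 acts on CXCR4 to guide and retain progenitor cells, muscle stem cells among them, and CSF1 keeps macrophages alive. PGE2 signals in part through cAMP, and several chemokine genes are textbook targets of NF-kappa B.

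In these cells Csf1, Cxcl12 and Cxcr4 were expressed in every library, while the inflammatory chemokines stood at a few TPM or were listed at 0, apart from Ccl7 at 42.2 TPM in PGE2 2. Csf1 averaged 401 ± 128 TPM in PGE2 and 491 ± 63.3 TPM in Vehicle (SD, n = 3 each). Cxcl12 averaged 43.4 ± 4.39 TPM in PGE2 and 55.9 ± 2.83 TPM in Vehicle, and was lower in each PGE2 library than in any Vehicle library. Cxcl2 read between 1.06 and 2.28 TPM in the PGE2 libraries and was listed at 0 in the Vehicle libraries. No member passed limma's test on log2(TPM + 1) over all genes at a Benjamini-Hochberg adjusted p under 0.05.

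Over the whole study 12781 genes were tested, those that reached 1 TPM in 3 libraries or more, and 0% of them passed. Of the 10 members 7 were tested, and 0 passed, with an adjusted p of 1.00 for each. At an unadjusted p under 0.05 there was 1 member, Cxcl2, against 3.63% of all tested genes. Ccl7, Ccl5 and Cxcl10 fell below the filter and are given by their values alone. The groups did not overlap for 2 of the 7 tested members, against 8.01% of all tested genes. These were Cxcl2 with every PGE2 library higher (3.18% of all tested genes) and Cxcl12 with every PGE2 library lower (4.84%). Those percentages are the background against which any such gene has to be read. Cxcl2, at 0 in Vehicle, reached the filter only through its PGE2 libraries. Its lack of overlap followed from that, and neither it nor the unadjusted p is a test of Cxcl2. The exact two-sided permutation test over 6 libraries cannot go below p = 0.1, which Cxcl12 reached and which the filter fixed for Cxcl2.

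Read depth cannot be recovered from TPM and is unknown here. Genes listed above 0 numbered 15400 to 17710 in the PGE2 libraries and 16446 to 19677 in the Vehicle libraries. Mitochondrial genes held 23.0% to 30.4% of the TPM in PGE2 and 20.9% to 33.6% in Vehicle. All 10 fixed markers of muscle stem cells reached 1 TPM in a library, and together they summed to 635 to 889 TPM in PGE2 and 710 to 899 TPM in Vehicle. The markers sorted for were there as RNA. Itga7, which encodes α7-integrin, read 13.2, 2.69 and 4.18 TPM in PGE2 1 to 3 and 4.68, 7.24 and 10.5 TPM in Vehicle 1 to 3. Cd34 read at least 12.4 TPM in every library. RNA of the markers sorted against was not absent. Ly6a (Sca1) read 0, 13.55 and 0 TPM in PGE2 1 to 3 and 2.22, 3.38 and 7.92 TPM in Vehicle 1 to 3. Ptprc (CD45) read 1.80, 3.47 and 4.81 TPM in PGE2 and 4.19, 0.81 and 0.45 TPM in Vehicle. Pecam1 (CD31) and Itgam (CD11b) stayed at or below 2.44 TPM. An entry of 0 in such a table may be a failed estimate, so genes at 0 are called listed at 0.

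Leukocytes are the main source of many chemokines and carry most of their receptors, so their markers are given beside these values. The 9 macrophage markers summed to 0.60 to 5.16 TPM in PGE2 and 0.43 to 4.00 TPM in Vehicle, and 4 of them, C1qa, C1qb, C1qc and Fcgr1, were listed at 0 in all 6 libraries. The 6 neutrophil markers summed to at most 5.45 TPM in PGE2 and 7.86 TPM in Vehicle. The 6 general leukocyte markers summed to 5.44 to 8.25 TPM in PGE2 and 1.28 to 7.84 TPM in Vehicle. The 8 lymphocyte markers summed to 1.33 to 13.3 TPM in PGE2 and 0.17 to 2.37 TPM in Vehicle. Of these the B cell gene Ms4a1 read 1.33, 4.16 and 12.1 TPM in PGE2 1 to 3 and 0.43, 0.54 and 0.17 TPM in Vehicle 1 to 3, and Cd3d, Cd2 and Cd79a added 2.83, 2.02 and 1.71 TPM in PGE2 2. Cd3g, Cd79b and Nkg7 of that list were at 0 throughout. The 7 fibro-adipogenic markers, of stromal cells that express Cxcl12 and several inflammatory chemokines, summed to 37.5 to 45.9 TPM in PGE2 and 18.7 to 31.5 TPM in Vehicle, and Pi16 was at 0. Each of the 7 overlapped between the groups: Col3a1, the largest part of the sum, read 36.5, 30.4 and 24.9 TPM in PGE2 1 to 3 and 15.3, 28.1 and 20.2 TPM in Vehicle 1 to 3, and Col1a1 added 14.4 TPM in PGE2 3 and at most 0.44 TPM elsewhere. Endothelial markers summed to 7.18 to 19.9 TPM in PGE2 and 4.16 to 7.42 TPM in Vehicle, with Cldn5 at 0. Emcn held 15.3 TPM in PGE2 3 and at most 0.87 TPM elsewhere. Eng read 2.55, 6.44 and 2.54 TPM in PGE2 and 1.57, 1.10 and 0.96 TPM in Vehicle. Every PGE2 library of Eng was thus higher, as for 3.18% of all tested genes. Pericyte and smooth muscle markers summed to 10.2 to 12.0 TPM in PGE2 and 7.04 to 16.0 TPM in Vehicle, with Pdgfrb at 0. Acta2, the largest part, read 8.68 to 9.24 TPM in PGE2 and 4.77 to 13.4 TPM in Vehicle. At or below 1.81 TPM and too low to test, Myh11 was higher and Cspg4 and Kcnj8 lower in every PGE2 library. The margins were 0.25 over 0.20 TPM for Myh11, 0.88 under 0.97 TPM for Cspg4 and 0 under 0.20 TPM for Kcnj8. How many untested genes separate in this way was not counted, so these are values without a background. Glial markers summed to 121 to 172 TPM in PGE2 and 107 to 167 TPM in Vehicle, nearly all of it Ncam1, which myogenic cells also express. The part of other cells in the chemokine values was not tested, and in such bulk RNA fewer cells of a type and less RNA per cell cannot be told apart.

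**Figure D1:**
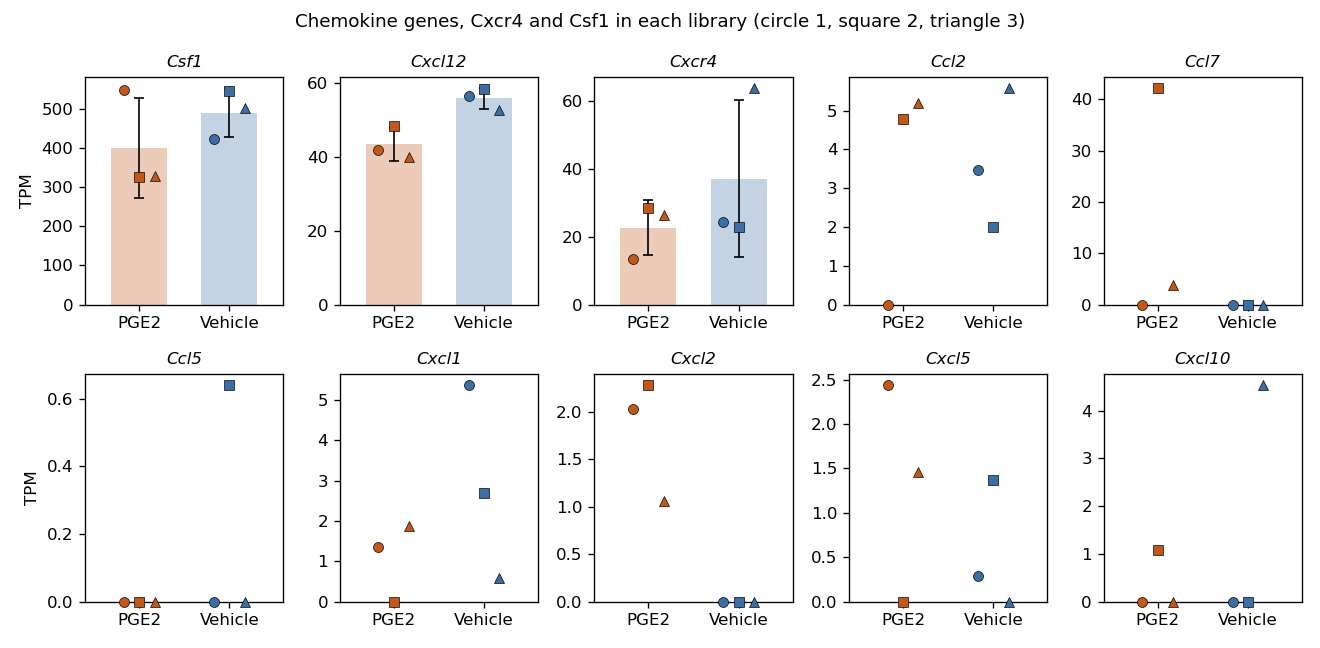
TPM (y axis, linear, a scale of its own per gene) of the 10 genes in the 3 PGE2 libraries (orange) and the 3 Vehicle libraries (blue), with circle, square and triangle for libraries 1, 2 and 3. Bars and error bars give mean and SD for the 3 genes above 0 in all libraries; Cxcl12 lies at 40.0 to 48.4 TPM in PGE2 and 52.8 to 58.4 TPM in Vehicle, and Cxcl2 is above 0 in the PGE2 libraries alone.

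By mean TPM over the 6 libraries, Csf1 came first at 446, above 99.1% of protein-coding genes. Cxcl12 at 49.7 and Cxcr4 at 29.9 TPM followed, above 91.3% and 86.7% of protein-coding genes. The lowest Csf1 library, at 326 TPM, was above the highest Cxcl12 library, at 58.4 TPM, so the first place in the order held in every library. Cxcl12 and Cxcr4 overlapped, since Cxcr4 read 64.0 TPM in Vehicle 3. Below them Ccl7 had the next mean, 7.67 TPM, which came almost wholly from 1 library. Ccl2 (3.51 TPM), Cxcl1 (1.98 TPM), Cxcl10 (0.94 TPM), Cxcl5 (0.93 TPM), Cxcl2 (0.90 TPM) and Ccl5 (0.11 TPM) overlapped their neighbours in that order. Zeros are common at such levels. Of 5420 protein-coding genes with a mean of 0.5 to 5 TPM, 56.8% were listed at 0 in at least 1 library, against 0.141% of the 2827 genes with a mean of 20 to 100 TPM.

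Cxcl12 (ENSMUSG00000061353, mm10 chromosome 6, 117168535 to 117181367, plus strand) encodes the ligand of CXCR4 and of the scavenging receptor ACKR3. It read 41.9, 48.4 and 40.0 TPM in PGE2 1 to 3 and 56.6, 58.4 and 52.8 TPM in Vehicle 1 to 3. All PGE2 libraries lay below all Vehicle libraries, and the mean in PGE2 was 0.777 times that in Vehicle. The log2 change was -0.36 (95% confidence interval -1.01 to 0.29, limma), which missed the threshold (unadjusted p = 0.243, Benjamini-Hochberg adjusted p = 1.00). The residual SD of Cxcl12 itself was 0.111 on the log2(TPM + 1) scale, while limma, which draws each gene's variance towards that of genes of like level, used 0.356. The interval thus mostly carries the spread of other genes at this level. Leaving out any 1 library kept the log2 change between -0.44 and -0.31. Beside it, the sum of the fibro-adipogenic markers was higher in all PGE2 libraries than in any Vehicle library, in PGE2 3 only with its Col1a1 value, while no marker on its own separated the groups, and their part in the Cxcl12 values was not tested.

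The receptor Cxcr4 (ENSMUSG00000045382, minus strand of chromosome 1, 128588199 to 128592293) read 13.3, 28.6 and 26.3 TPM in PGE2 1 to 3 and 24.5, 22.9 and 64.0 TPM in Vehicle 1 to 3. The groups overlapped, with Vehicle 3 far above the other 5 libraries and PGE2 1 below them. Its log2 change of -0.59 (95% confidence interval -1.66 to 0.48, limma adjusted p = 1.00) shrank to -0.13 without Vehicle 3 and to -0.26 without PGE2 1. The ratio of Cxcl12 to Cxcr4 TPM was 3.15, 1.69 and 1.52 in PGE2 1 to 3 and 2.31, 2.54 and 0.826 in Vehicle 1 to 3, so ligand and receptor kept no common proportion from library to library. Ackr3, the atypical receptor that clears CXCL12, was more abundant than Cxcr4 in 5 of 6 libraries, at 59.5, 38.6 and 42.2 TPM in PGE2 1 to 3 and 70.7, 60.3 and 32.0 TPM in Vehicle 1 to 3. It had a log2 change of -0.16 ± 0.38 (SE, limma). In Vehicle 3, where Cxcr4 was highest, Ackr3 was at its lowest.

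Of 9 other partners of the axis 6 were tested. The fitted value was higher for 4 and lower for 2, where 56.1% of all tested genes had a lower fitted value. Of the 6, 0 passed the threshold. Mif, a cytokine that also binds CXCR4, read 49.7, 39.4 and 17.7 TPM in PGE2 1 to 3 and 55.8, 68.8 and 51.3 TPM in Vehicle 1 to 3. Its PGE2 libraries all lay below its Vehicle libraries, as for 4.84% of all tested genes, with a log2 change of -0.81 (95% confidence interval -1.72 to 0.09, limma, unadjusted p = 0.0735). The arrestin gene Arrb1 was too low to test and is named after its values were seen. It read 0.66, 1.25 and 7.06 TPM in PGE2 and 0.18, 0 and 0.54 TPM in Vehicle. Its PGE2 libraries all lay higher, by a margin of 0.66 over 0.54 TPM. How many untested genes separate in this way was not counted, so no background stands beside it. Hmgb1, a nuclear protein that pairs with CXCL12 outside the cell, read 428, 757 and 415 TPM in PGE2 and 548, 380 and 311 TPM in Vehicle. Gnai2, the inhibitory G protein subunit through which chemokine receptors signal, overlapped as well, at 34.9 to 42.3 TPM in PGE2 and 29.1 to 64.3 TPM in Vehicle. Arrb2, the arrestin that desensitises receptors, and the receptor kinases Grk2 and Grk6 stayed between 2.02 and 11.1 TPM with log2 changes of 0.37, 0.03 and 0.14. Dpp4, the peptidase that inactivates CXCL12, and Cd74, the MIF receptor, were listed at 0 throughout.

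Csf1 (ENSMUSG00000014599, minus strand of chromosome 3, 107741048 to 107760469) read 549, 326 and 329 TPM in PGE2 1 to 3 and 423, 548 and 503 TPM in Vehicle 1 to 3. PGE2 1 was as high as the highest Vehicle library, while PGE2 2 and 3 lay below all of them. The log2 change was -0.33 (95% confidence interval -1.03 to 0.37, limma adjusted p = 1.00) and became -0.57 without PGE2 1. Il34, the other ligand of the CSF1 receptor, read 11.2, 7.11 and 9.69 TPM in PGE2 and 12.9, 5.58 and 11.2 TPM in Vehicle, with a log2 change of -0.02. Csf1 exceeded Il34 between 33.9 and 49.1 times in PGE2 and between 32.9 and 98.1 times in Vehicle. The receptor Csf1r, a macrophage gene, read 0, 2.85 and 4.07 TPM in PGE2 and 0.81, 0.18 and 0.27 TPM in Vehicle and was not tested. Csf3, which encodes the granulocyte factor G-CSF, was listed at 0 throughout, and Csf2, for GM-CSF, read 0.76 TPM in PGE2 3 and 0 elsewhere.

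**Figure D2:**
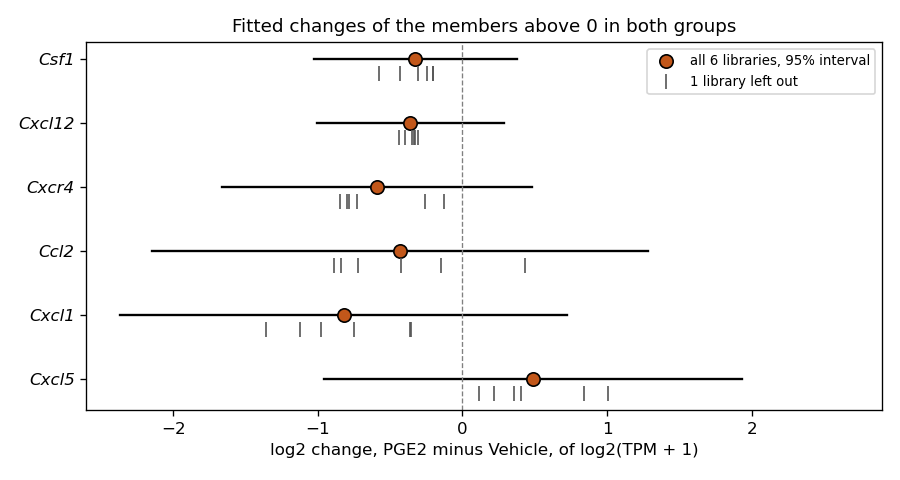
Log2 change, PGE2 minus Vehicle, of log2(TPM + 1) (x axis) for the 6 tested members above 0 in both groups, with the limma 95% confidence interval from all 6 libraries and a tick for each fit without 1 library. Every interval spans 0; the ticks of Cxcl12 stay within -0.44 to -0.31, and those of Ccl2 reach 0.43.

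Among the ligands of CCR2, Ccl2 (ENSMUSG00000035385, chromosome 11, 82035571 to 82037453, plus strand) read 0, 4.79 and 5.20 TPM in PGE2 1 to 3 and 3.48, 1.99 and 5.58 TPM in Vehicle 1 to 3. Aside from PGE2 1, where it was listed at 0, the libraries of both groups lay in 1 range. Its log2 change of -0.43 (95% confidence interval -2.15 to 1.28, limma adjusted p = 1.00) turned to 0.43 without PGE2 1 and to 0.15 with library weights. Ccl7 (ENSMUSG00000035373, chromosome 11, 82045712 to 82047525, plus strand), whose product shares CCR2 with CCL2 and also binds other CC receptors, read 0, 42.2 and 3.78 TPM in PGE2 1 to 3 and was listed at 0 in the 3 Vehicle libraries. It was thus seen in PGE2 2 and 3 alone, at very unequal levels, and fell below the filter. Only 1 protein-coding gene, Ccl7 itself, was listed at 0 in 4 or more libraries and read 42.2 TPM or more in another. Both limits were taken from Ccl7's own values, so this count describes Ccl7 and does not test how unusual it is. The sum of Ccl2 and Ccl7 was 0, 47.0 and 8.98 TPM in PGE2 and 3.48, 1.99 and 5.58 TPM in Vehicle. Its PGE2 mean was 18.7 TPM with all 3 libraries and 4.49 TPM without PGE2 2, against 3.68 TPM in Vehicle.

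Both genes lie at the start of a CC chemokine cluster on chromosome 11, with Ccl7 10.1 kb downstream of Ccl2. The 5 genes from Ccl2 to Ccl8 span 81.2 kb, and 2 of them, Ccl2 and Ccl7, reached 1 TPM in a library. Ccl11, the eosinophil attractant eotaxin, was at most 0.85 TPM, and Ccl12 and Ccl8 were listed at 0 in all 6 libraries. The receptor Ccr2 read 2.00, 0.67 and 0.46 TPM in PGE2 and 1.41, 0.78 and 0 TPM in Vehicle.

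Ccl5 (ENSMUSG00000035042, chromosome 11, 83525778 to 83530518, minus strand), a T cell and monocyte attractant, was listed at 0 in the PGE2 libraries and read 0, 0.64 and 0 TPM in Vehicle 1 to 3. Of the receptors it binds, Ccr1 was listed at 0 throughout. Ccr3, too low to test, read 1.48, 1.47 and 0.51 TPM in PGE2 and 0.40, 0.28 and 0 TPM in Vehicle. Its groups did not overlap, by 0.51 over 0.40 TPM, and how many untested genes separate in this way was not counted.

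The CXCR2 ligands lie in a CXC cluster on chromosome 5, where 7 genes from Cxcl5 to Cxcl2 span 146.6 kb. The 220 bases that run from 250 to 31 bases before the RefSeq start of Cxcl1 and Cxcl2 are shown because these neighbours, 12.6 kb apart by their GENCODE starts, carry the same NF-kappa B type match. The windows of Csf1 and Cxcl12, the most abundant ligands, are shown beside them. Sequences are from RefSeq, build GRCm38.p6, each 5′ to 3′ on its gene's strand, with capitals for an NF-kappa B type pattern (GGG, any 3 bases, TTCC) and for TGACG, the short form of the cAMP response element, on either strand.
Cxcl1, chr5:90890995-90891214, plus strand: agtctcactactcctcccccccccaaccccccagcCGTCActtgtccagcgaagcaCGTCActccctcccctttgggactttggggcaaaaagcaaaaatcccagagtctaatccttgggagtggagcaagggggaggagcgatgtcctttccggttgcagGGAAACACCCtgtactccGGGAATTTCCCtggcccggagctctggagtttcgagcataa
Cxcl2, chr5:90903649-90903868, plus strand: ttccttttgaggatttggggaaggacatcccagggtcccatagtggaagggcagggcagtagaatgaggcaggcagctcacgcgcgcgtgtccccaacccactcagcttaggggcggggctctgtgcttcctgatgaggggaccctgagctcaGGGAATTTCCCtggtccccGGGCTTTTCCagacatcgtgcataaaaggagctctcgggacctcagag
Csf1, chr3:107760500-107760719, minus strand: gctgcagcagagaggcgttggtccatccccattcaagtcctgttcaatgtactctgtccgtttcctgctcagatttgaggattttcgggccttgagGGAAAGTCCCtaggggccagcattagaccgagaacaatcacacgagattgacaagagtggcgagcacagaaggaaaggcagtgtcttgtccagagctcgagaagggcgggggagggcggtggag
Cxcl12, chr6:117168285-117168504, plus strand: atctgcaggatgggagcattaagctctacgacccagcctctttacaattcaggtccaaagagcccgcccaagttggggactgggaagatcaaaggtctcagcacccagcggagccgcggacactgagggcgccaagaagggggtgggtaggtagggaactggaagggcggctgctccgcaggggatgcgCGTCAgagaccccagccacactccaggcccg

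The table of promoters held windows for 6 of the 10 members. The NF-kappa B type pattern was found in 4 of these 6, Cxcl1, Cxcl2, Cxcl10 and Csf1, and in 3.84% of all 32851 windows of the same length. GGGAATTTCC lay 71 to 62 bases before the start of Cxcl1 and 97 to 88 bases before that of Cxcl2, and each copy overlaps a match on the opposite strand by all but 1 base, which makes 1 run of GGGAATTTCCC. Cxcl2 held a further match, GGGCTTTTCC, 78 to 69 bases before its start, and Cxcl1 held GGAAACACCC, a match on the opposite strand, 89 to 80 bases before. TGACG was found in 2 of the 6 windows, in Cxcl1 at 2 places and in Cxcl12 at 1 place, and in 14.8% of all windows. The full cAMP response element TGACGTCA was in 0 of the 6 and in 1.14% of all windows. A match of letters is a description and does not show that a factor binds.

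Cxcl1 (ENSMUSG00000029380, chromosome 5, 90891241 to 90893115, plus strand) read 1.35, 0 and 1.87 TPM in PGE2 1 to 3 and 5.37, 2.68 and 0.59 TPM in Vehicle 1 to 3. Vehicle 1 and 2 were above every PGE2 library and Vehicle 3 was below 2 of them, so the groups overlapped. The log2 change was -0.82 (95% confidence interval -2.37 to 0.72, limma adjusted p = 1.00) and moved to -0.36 without Vehicle 1 or without PGE2 2. Cxcl2 (ENSMUSG00000058427, chromosome 5, 90903871 to 90905938, plus strand) read 2.03, 2.28 and 1.06 TPM in PGE2 1 to 3 and was listed at 0 in Vehicle 1 to 3. It passed the filter only through its PGE2 libraries, so no p-value is given here as a test of it. No fold is given against a group at 0. Of the tested genes, 15 were listed at 0 in all Vehicle libraries, each of which the filter let in only because its 3 PGE2 libraries reached 1 TPM. Among protein-coding genes of any level, 38 were above 0 in every PGE2 library and at 0 in every Vehicle library, and 123 were the other way round.

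The Cxcl2 transcript shares part of its sequence with its neighbour Cxcl3. Of its 30-base stretches 7.17% also occur in Cxcl3, so reads from there could be assigned to either gene. Cxcl3, another CXCR2 ligand, read 2.74, 0 and 0 TPM in PGE2 1 to 3 and 0, 0.94 and 0.60 TPM in Vehicle 1 to 3. Summed over both genes, the values were 4.77, 2.28 and 1.06 TPM in PGE2 and 0, 0.94 and 0.60 TPM in Vehicle, which did not overlap either, by a margin of PGE2 3 at 1.06 over Vehicle 2 at 0.94. The other members shared at most 1.10% of their 30-base stretches with any other gene.

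Cxcl5 (ENSMUSG00000029371, chromosome 5, 90759360 to 90761624, plus strand), the first gene of the cluster, read 2.44, 0 and 1.46 TPM in PGE2 1 to 3 and 0.29, 1.37 and 0 TPM in Vehicle 1 to 3. Both groups held a library at 0, and the log2 change was 0.49 (95% confidence interval -0.95 to 1.93, limma adjusted p = 1.00). Together Cxcl1, Cxcl2 and Cxcl5 summed to 5.82, 2.28 and 4.39 TPM in PGE2 and 5.66, 4.05 and 0.59 TPM in Vehicle. The total of these CXCR2 ligands, which leaves out Cxcl3, thus overlapped. Cxcl1 held the largest share in each Vehicle library and in none of the PGE2 libraries other than PGE2 3. The platelet chemokines Ppbp and Pf4 of the same cluster were at 0 throughout, and Cxcl15 read 2.30 TPM in PGE2 2 alone. The receptor Cxcr2 was at most 1.10 TPM, in PGE2 2.

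Cxcl10 (ENSMUSG00000034855, minus strand of chromosome 5, 92346638 to 92348889), an interferon-induced attractant of T cells, read 0, 1.09 and 0 TPM in PGE2 1 to 3 and 0, 0 and 4.54 TPM in Vehicle 1 to 3. It was seen in 1 library of each group. The related Cxcl9 and Cxcl11 stayed at or below 1.76 TPM, and their shared receptor Cxcr3 was listed at 0 throughout.

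**Figure D3:**
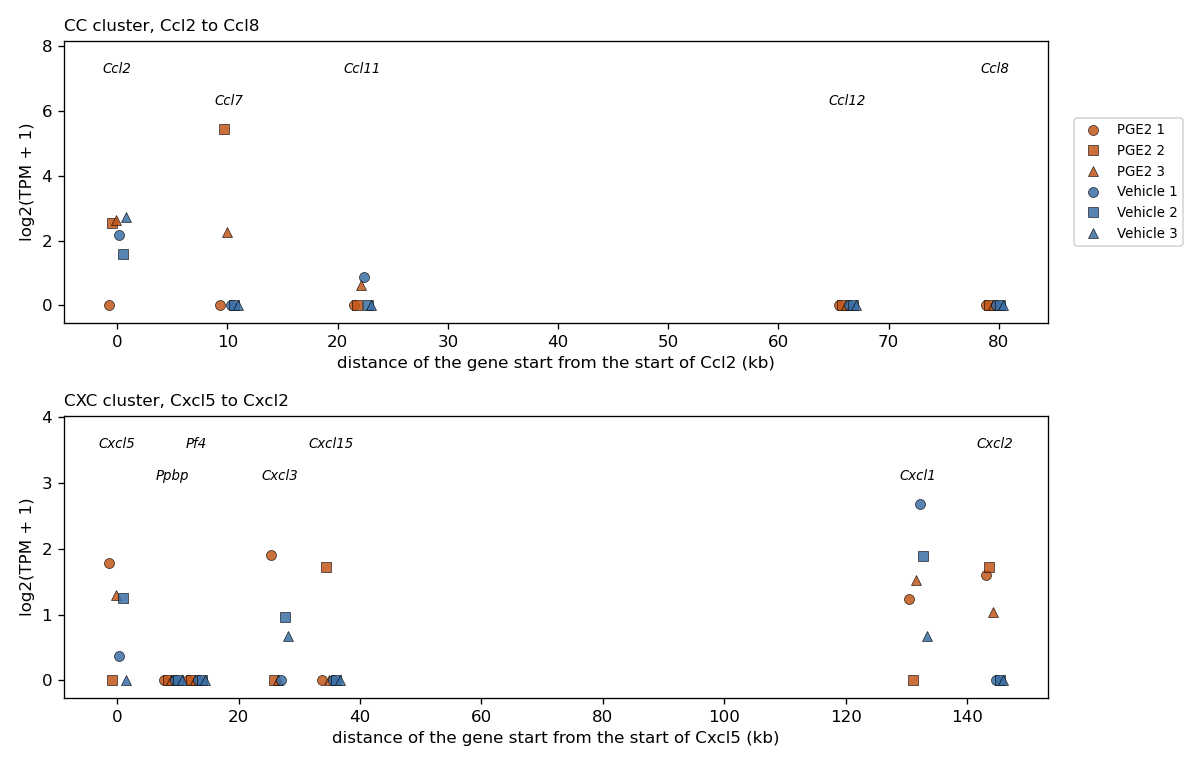
Level of each gene as log2(TPM + 1) (y axis) against the distance of its start from that of the first gene in kb (x axis), for the CC cluster on chromosome 11 (top) and the CXC cluster on chromosome 5 (bottom). Orange marks the PGE2 and blue the Vehicle libraries, with libraries set slightly apart along x; Ccl7 stands out in PGE2 2 at 42.2 TPM, and Cxcl2 is above 0 in PGE2 libraries alone.

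Over the wider family, most genes were at or near 0. Of 20 CC ligands 3 were tested and 10 stayed below 1 TPM in every library. The 3, Ccl2, Ccl25 and Ccl27a, all had a lower fitted value, with a median log2 change of -0.49, where the median of all 12781 genes was -0.07 and 56.1% had a lower fitted value. That direction was not stable, since Ccl25 turned to a log2 change of 0.33 with a pseudocount of 0.1 TPM, 0.12 without PGE2 2 and 0.66 without Vehicle 1, and Ccl2 to 0.43 without PGE2 1 and 0.15 with library weights. Ccl25, a thymus and gut chemokine, read 3.85, 1.58 and 15.8 TPM in PGE2 1 to 3 and 39.6, 13.2 and 0 TPM in Vehicle 1 to 3. Of the 17 CXC, CX3C and C ligands 6 were tested, and the fitted value was higher for 4 of them and lower for 2. Over all tested genes 56.1% had a lower fitted value. The 4 include Cxcl2, whose direction was fixed by the filter, since it was listed at 0 in every Vehicle library. Xcl1, a lymphocyte chemokine, read 0, 2.63 and 4.90 TPM in PGE2 and 0, 0 and 6.89 TPM in Vehicle. Cx3cl1, a membrane-bound chemokine, was at 2.19, 0.73 and 1.96 TPM in PGE2 and 1.19, 0.64 and 0.95 TPM in Vehicle. Of these ligands the most abundant by mean was Cxcl12, which held 87.8%, 49.0% and 75.0% of the TPM of the 8 member chemokines in PGE2 1 to 3 and 86.1%, 89.7% and 83.1% in Vehicle 1 to 3, PGE2 2 being lowest through Ccl7.

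Of the 18 chemokine receptors listed, 6 were at 0 in all libraries. Among 5 atypical receptors Ackr3 was tested, and Ackr4 read up to 3.55 TPM in Vehicle 3. Cxcr4 and Ackr3 were the receptors with 10 TPM or more in every library. None of the tested ligands or receptors passed limma's threshold, where the background is 0%.

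Cytokines and receptors that induce chemokines were given from a list of 20, of which 14 were tested. Fitted values were higher for 3 and lower for 11, Myd88 among the 11, where 56.1% of all tested genes had a lower fitted value. Of the 14, 0 passed the threshold (median log2 change -0.35, against -0.07 for all tested genes). Il1r1, the interleukin-1 receptor, read 21.7, 7.93 and 15.1 TPM in PGE2 and 18.3, 18.5 and 18.7 TPM in Vehicle, and its partner Il1rap stood at 3.82 to 9.29 TPM in PGE2 and 6.08 to 11.2 TPM in Vehicle. Il17ra, the interleukin-17 receptor, read 47.5, 17.6 and 16.6 TPM in PGE2 and 22.6, 25.7 and 27.1 TPM in Vehicle. The interferon receptor chains Ifnar1, Ifnar2, Ifngr1 and Ifngr2 had log2 changes of 0.55, -0.41, 0.19 and -0.95, with an interval that spans 0 for each. Tlr4, the receptor for bacterial lipopolysaccharide, read 7.01, 3.54 and 2.33 TPM in PGE2 and 9.74, 6.61 and 12.6 TPM in Vehicle, with a log2 change of -1.07 (95% confidence interval -2.26 to 0.13, limma, unadjusted p = 0.0749). Myd88, the adaptor of Tlr4 and of the interleukin-1 receptor, had every PGE2 library below every Vehicle library, as for 4.84% of all tested genes, at 1.28, 0.63 and 0 TPM in PGE2 and 1.59, 2.18 and 3.28 TPM in Vehicle. It was chosen as an example after its values were seen, and its 3 Vehicle libraries alone brought it past the filter, with 1 PGE2 library above 1 TPM, so no test of it is given. Tnf was at most 0.85 TPM, Il1b reached 5.23 TPM in PGE2 1 and at most 0.80 TPM elsewhere, and Ifng and Il17a were listed at 0.

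**Figure D4:**
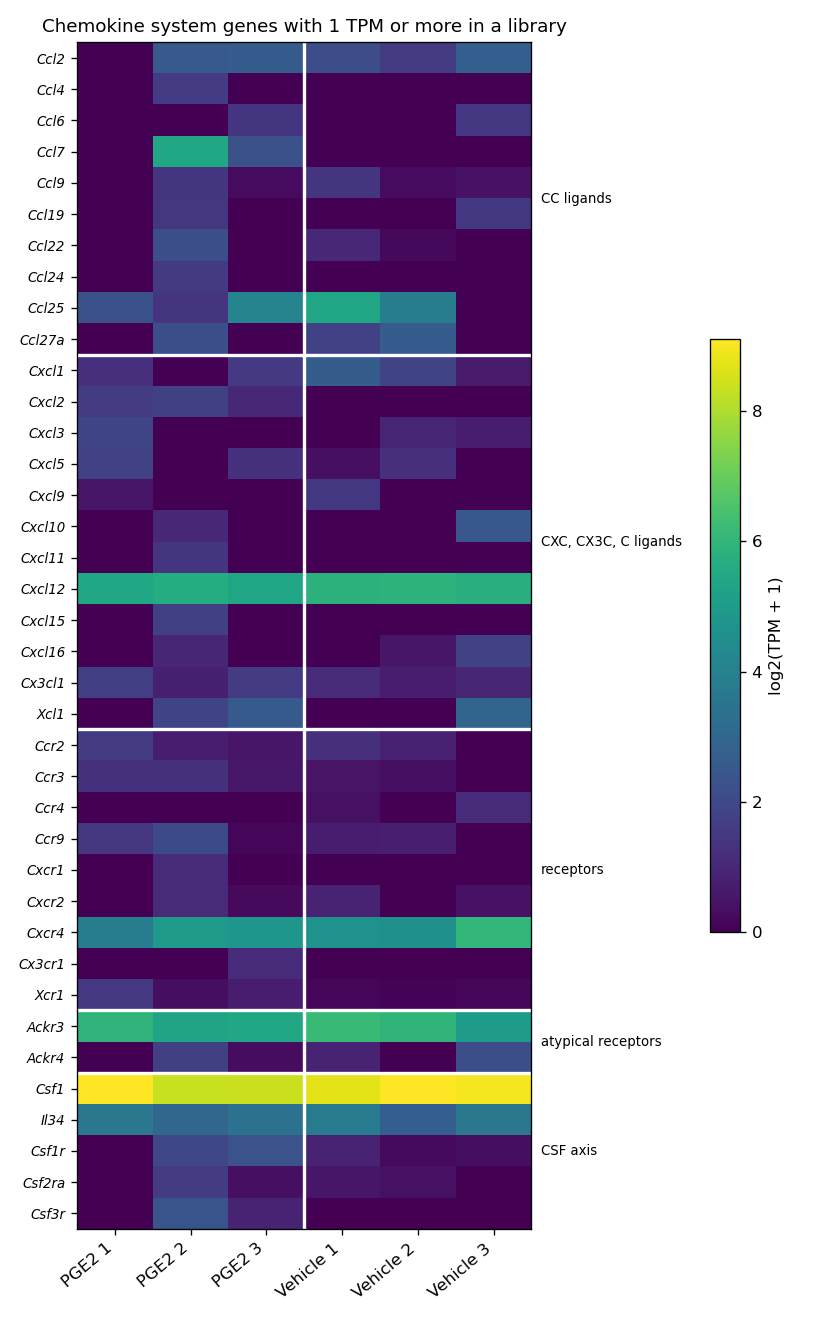
Colour scale of log2(TPM + 1) for chemokine ligands, receptors, atypical receptors and CSF genes that reach 1 TPM in a library (rows), in the 3 PGE2 libraries (left of the white line) and the 3 Vehicle libraries (right). Csf1, Cxcl12, Cxcr4 and Ackr3 form continuous bands, and most other rows are dark with single brighter cells, such as Ccl7 in PGE2 2.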

How the data were processed

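The authors deposited 1 table of TPM values with a column for each library; the unit is not named there and was inferred from values with decimals whose column sums run from 992357 to 995645. STAR, RSEM and mm10 are named in the submitters' processing notes, with no versions, settings or annotation. Gene positions came from GENCODE M21 of the same build, which holds 42782 of the 43283 identifiers, and promoter windows from RefSeq. Genes reaching 1 TPM in 3 libraries or more were fitted as log2(TPM + 1), PGE2 minus Vehicle. The fit used limma 3.58.1 (R 4.3.3; trended variance prior), two-sided, and p-values were adjusted by Benjamini-Hochberg over every tested gene. This scale understates changes of low genes. The fit was tested on simulated data. The changes planted there were larger than those of the members, in genes of higher level than the inflammatory chemokines. It thus does not speak to smaller changes or lower genes. Python 3.11.15 made tables and figures. The members and gene lists were chosen with earlier results of these data known. Of 163 list entries 163 matched, Grk2 through its identifier under an older symbol. Named from each list are its tested genes, at most 8 by mean TPM, plus the members' receptors; 1 receptor is not reported here. The replicate numbers were not used as pairs, since nothing in the labels says what a number shares. Same-numbered PGE2 and Vehicle libraries did not deviate together. Protein motifs were planned and not analysed here.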

Additional observations from a re-analysis of the deposited data

How the results depend on the processing

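Over the 7 tested members 16 or 17 alternatives each were run, 115 values in all, and 113 kept their direction and their side of the threshold. The exceptions were both Ccl2, whose log2 change of -0.43 became 0.43 without PGE2 1 and 0.15 with library weights. Part of the 113 could not have turned. Other filters, the robust variance prior and the replicate block leave the log2 change as it is. The exact permutation test uses the same change and cannot pass the threshold. Cxcl2, at 0 in every Vehicle library, could not turn with a library left out. The count thus overstates how stable the directions are. No member passed in any limma alternative, and the adjusted p of Cxcl12 ranged from 0.746 to 1.00. With 1 library left out, the log2 changes ran from -0.57 to -0.20 for Csf1, -0.44 to -0.31 for Cxcl12, -0.85 to -0.13 for Cxcr4, -0.89 to 0.43 for Ccl2, -1.36 to -0.36 for Cxcl1 and 0.11 to 1.00 for Cxcl5. A pseudocount of 0.1 TPM widened the changes of low genes, to -1.35 for Ccl2, -1.73 for Cxcl1 and 0.93 for Cxcl5, and turned Ccl25 to 0.33. Over all genes, 0 passed in the reported fit (464 at an unadjusted p under 0.05). Of the alternatives on all 6 libraries, the robust variance prior gave 1 gene, lower in PGE2, and the others gave 0. Leaving out 1 library gave 0 to 2 genes, 0 to 1 in each direction. The cause was not tested. No scaling moved the median change of all genes by over 0.1: it was -0.07 as reported, -0.02 with median-ratio scaling and with quantile normalization, and -0.10 without mitochondrial genes. With the replicate number as a block 0 genes passed (482 at an unadjusted p under 0.05). The deviations of same-numbered libraries correlated at -0.06, -0.04 and 0.07. The block was planned only as an alternative, since the labels do not say what a number shares. Alternatives that need read counts were not run, since TPM holds none. Depth is unknown, which leaves values of a few TPM without an error of their own.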
